A study of Mus musculus with 12 samples.

Results

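The genes described here were the inflammasome sensors and inflammatory caspases of mouse skin, a set of 10 named genes taken by symbol from the table of counts: Aim2, Nod1, Nod2, Nlrp3, Nlrp1b, Nlrp10, Nlrx1, Pycard, Casp1 and Casp4. All 10 were present among the 14533 genes of the table, and none had a count of 0 in any library. They were measured by mRNA sequencing in dorsal skin scrapings of 6 WT and 6 Pparg-/-epi mice, with 1 library per mouse. Mice of both groups were C57BL/6 animals, aged 8 to 13 weeks by their labels, and carried the floxed Pparg allele on both chromosomes. WT mice lacked the Cre transgene (Cre-/-) and Pparg-/-epi mice carried it (Cre+/-), under the cytokeratin 14 promoter, which is active in basal keratinocytes and in the epithelium of hair follicles and sebaceous glands. The WT group held 3 females and 3 males and the Pparg-/-epi group 4 females and 2 males. The skin was untreated and free of visible lesions, and the scraping reached the superficial dermis, so the RNA came from keratinocytes together with resident immune cells and some dermal cells.

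An inflammasome is a protein complex assembled in the cytosol when a sensor meets a microbial product or a sign of damage. The sensor, such as AIM2 for double-stranded DNA or NLRP3 for a range of cell stresses, recruits the adaptor ASC (encoded by Pycard), which gathers pro-caspase-1. Active caspase-1 matures IL-1β and IL-18 and cleaves gasdermin D, which opens pores in the membrane and causes pyroptosis. The mouse gene Casp4 encodes caspase-11, which binds bacterial lipopolysaccharide directly and also cleaves gasdermin D. NOD1 and NOD2 belong to the same NOD-like receptor (NLR) family but respond to fragments of peptidoglycan and signal through the kinase RIPK2 to NF-κB. In skin these genes are known from keratinocytes and from myeloid cells alike.

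Total counts ranged from 10120840 to 16947632 in WT and from 11272135 to 18851255 in Pparg-/-epi libraries and did not differ detectably (exact permutation test, two-sided, p = 0.965), and neither did RNA integrity (p = 0.310 by the same test). WT replicate 2 stood apart from the other WT libraries: on the first axis of a multidimensional scaling, which held 38.7% of the variation, it lay at 1.19, among the Pparg-/-epi libraries (0.12 to 1.97) and away from the other WT libraries (-1.99 to -0.91). Results that changed without it are given both ways. Pparg counts (5 to 269 in WT, 16 to 107 in Pparg-/-epi mice) did not tell the genotypes apart, also without WT replicate 2, which held the 269 (5 to 59 in the other 5 WT mice). Excision of the floxed exons is known to leave a shortened Pparg transcript, which the counts per gene include. In scrapings of mixed cells, more RNA of a gene per cell and more cells that hold it cannot be told apart.

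Of the 10 genes, 4 rose in Pparg-/-epi mice (Aim2, Nod2, Casp1 and Casp4), 1 fell (Nlrp1b) and 5 did not pass the test (Nod1, Nlrp3, Nlrp10, Nlrx1 and Pycard). A gene was called altered where its adjusted p was under 0.05 and its log2 fold change was 0.6 or more in either direction, in edgeR's quasi-likelihood test with Benjamini-Hochberg adjustment over all 14533 genes. Of all genes tested, 10.3% were altered, 5.19% higher and 5.08% lower, and in 7.9% of genes the CPM values (counts scaled to a common library total) of the groups did not overlap. The groups did not overlap for 5 of the 10 genes, the same 5 that were called. The median log2 fold change of the 10 genes was 0.61, a midpoint between Nlrx1 (0.15) and Nlrp3 (1.07), beside -0.01 over all genes. The 10 genes were chosen with earlier results of these data known. The study itself had listed Aim2, Nod2, Nlrp3, Nlrp1b, Casp1 and Casp4 as differentially expressed in the same mice. The shares and medians of the 10 genes are therefore a description and no test of the set. With the likelihood ratio test, which altered 11.8% of all genes, 6 of the 10 were altered.

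**Figure D1:**
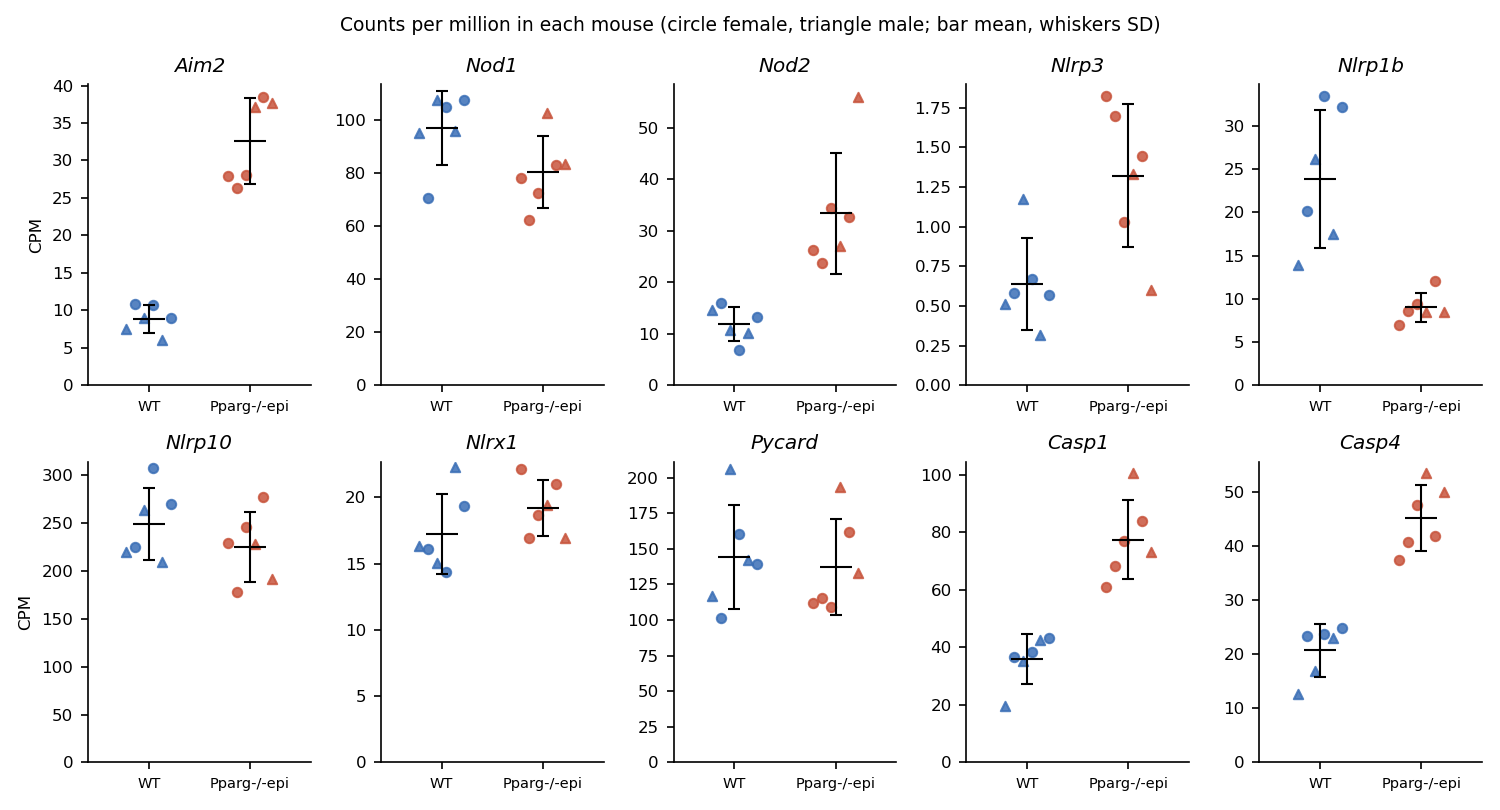
Each panel plots 1 gene, with CPM on the vertical axis from 0 and genotype on the horizontal axis. Points are single mice (circles female, triangles male), the bar is the mean and the whiskers are the SD of 6 mice. Aim2, Nod2, Casp1 and Casp4 lay higher in every Pparg-/-epi mouse than in any WT mouse, Nlrp1b lay lower, and the other genes overlapped.

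For the 5 altered genes, the 250 bases upstream of the annotated gene start are printed to show what sequence lies before each of them and whether a short motif recurs. The windows are from RefSeq's promoter table (GRCm38.p6), which held 9 of the 10 genes at the start used in the counts (all but Nlrp10). Each is written 5′ to 3′ on the strand of the gene, ending at the base before the start. Capitals mark matches, on either strand, to any of 5 patterns: the IRF core AANNGAAA, the GAS element TTCNNNGAA bound by STAT factors, the AP-1 site TGANTCA, the nuclear receptor half-site AGGTCA, and the κB consensus of NF-κB.
Aim2, chr1:173420354-173420603, plus strand: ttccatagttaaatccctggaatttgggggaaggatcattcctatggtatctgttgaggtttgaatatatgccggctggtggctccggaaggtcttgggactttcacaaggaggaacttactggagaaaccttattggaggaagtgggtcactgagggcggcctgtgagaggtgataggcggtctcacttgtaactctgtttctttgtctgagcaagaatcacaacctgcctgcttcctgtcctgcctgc
Nod2, chr8:88647097-88647346, plus strand: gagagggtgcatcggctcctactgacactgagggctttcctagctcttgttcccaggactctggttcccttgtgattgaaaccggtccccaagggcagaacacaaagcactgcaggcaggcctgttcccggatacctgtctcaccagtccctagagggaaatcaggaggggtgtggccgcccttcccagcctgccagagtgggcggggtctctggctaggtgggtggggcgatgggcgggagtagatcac
Casp1, chr9:5298267-5298516, plus strand: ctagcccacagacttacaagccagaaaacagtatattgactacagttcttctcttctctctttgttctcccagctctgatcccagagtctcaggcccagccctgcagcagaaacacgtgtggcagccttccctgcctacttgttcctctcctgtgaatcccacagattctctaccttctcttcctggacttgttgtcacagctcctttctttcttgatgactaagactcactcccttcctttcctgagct
Casp4, chr9:5308599-5308848, plus strand: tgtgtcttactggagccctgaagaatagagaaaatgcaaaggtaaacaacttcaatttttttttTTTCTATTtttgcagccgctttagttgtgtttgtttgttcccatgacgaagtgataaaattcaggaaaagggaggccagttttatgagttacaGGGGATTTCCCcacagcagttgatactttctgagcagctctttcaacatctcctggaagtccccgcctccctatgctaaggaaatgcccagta
Nlrp1b, chr11:71230734-71230983, minus strand: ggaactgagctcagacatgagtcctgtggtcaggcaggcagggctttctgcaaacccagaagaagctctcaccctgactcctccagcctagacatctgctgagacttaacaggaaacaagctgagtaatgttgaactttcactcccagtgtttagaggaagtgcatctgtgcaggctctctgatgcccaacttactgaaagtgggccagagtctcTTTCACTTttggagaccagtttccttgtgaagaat
The windows of Aim2, Nod2 and Casp1 held none of the 5 patterns. That of Casp4 held an IRF core starting 186 bases before the start and a pair of overlapping κB matches starting 93 and 92 bases before it. That of Nlrp1b held an IRF core 35 bases before the start. Among the genes that were not called, Nlrp3 held IRF cores at 90 and 82 bases, Nod1 at 239 bases and Pycard at 160 bases, while Nlrx1 held a GAS element at 125 bases and a nuclear receptor half-site at 161 bases. Over the 32851 windows of the table, 21.3% held an IRF core, 7.02% a GAS element, 6.75% an AP-1 site, 14.0% a half-site and 3.90% a κB match. No pattern was shared by all 5 altered genes.

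Aim2 encodes the cytosolic sensor of double-stranded DNA and lies on the plus strand of chromosome 1 (mm10, 173420604 to 173466036). It had 6.09, 8.98 and 10.8 CPM as the lowest, median and highest WT values and 26.3, 32.6 and 38.5 CPM in Pparg-/-epi mice. Every Pparg-/-epi mouse lay above the highest WT mouse, WT replicate 2. Aim2 rose by 1.88 on the log2 scale (95% interval 1.52 to 2.24, adjusted p = 4.68e-05), or 3.68-fold. Ordered by p over the whole table it was at place 13, and ordered by size among the genes that rose, at place 169. The SD was 1.84 CPM around a mean of 8.84 CPM in WT, and 5.69 CPM around a mean of 32.6 CPM in Pparg-/-epi mice.

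Aim2 lies next to the cluster of related Ifi200 genes, which also encode DNA-binding proteins. Its neighbors in the table within 200 kb were Fcer1a, Ackr1, Cadm3 and Pyhin1, a selection made after the values were seen. Pyhin1, a relative of Aim2, differed between the genotypes by 0.17 in log2 units (adjusted p = 0.823). Fcer1a, which encodes the α chain of the high-affinity IgE receptor, was at 0 to 0.0672 CPM in WT mice against 1.41 to 3.98 CPM in the other group and was called higher. Genes were listed only if above 0.5 CPM in at least 6 mice, a level that no WT mouse reached for Fcer1a. It was therefore listed only through its Pparg-/-epi values, which by itself sets the groups apart, and its call is no independent result. The other neighbors were not called.

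Nlrp3 encodes the sensor that answers to potassium efflux, crystals and other stresses, and was the least abundant of the genes (chromosome 11, 59542686 to 59566956, plus strand). Between 4 and 11 reads were counted per WT library and between 7 and 35 per Pparg-/-epi library. In CPM the lowest, median and highest WT values were 0.316, 0.575 and 1.17, and those of Pparg-/-epi mice were 0.601, 1.39 and 1.82. The highest WT mouse (WT replicate 3) and the lowest Pparg-/-epi mouse (Pparg-/-epi replicate 12) made the groups overlap. Its log2 fold change of 1.07 had a wide 95% interval, from 0.33 to 1.82, and an adjusted p of 0.0532. It passed with the likelihood ratio test (adjusted p = 0.0254) and with DESeq2 (adjusted p = 0.0407), and in 2 of the 12 fits that left out 1 library, those without the 2 mice just named (adjusted p = 0.0237 and 0.0279). At so few counts the side of the threshold on which Nlrp3 falls rested on the test and on single mice.

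Nlrp1b encodes the sensor that is triggered when its own amino-terminal part is degraded, as after cleavage by anthrax lethal factor, and lies on the minus strand of chromosome 11 (71153102 to 71230733). It was the only gene of the set to fall. Its WT values were 13.9, 23.2 and 33.5 CPM (lowest, median and highest) and its Pparg-/-epi values 6.92, 8.56 and 12.1 CPM. WT mice were spread over a wide range and Pparg-/-epi mice lay close together, and the highest Pparg-/-epi mouse was just below the lowest WT mouse. The fall was 2.66-fold, or -1.41 in log2 units (95% interval -1.89 to -0.93, adjusted p = 0.00148).

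The mouse genome holds further Nlrp1 copies beside Nlrp1b, so reads can in principle be shared. Of the 75-base stretches of Nlrp1b transcripts, 0.445% also occurred in transcripts of another gene, Nlrp1a, and the exons of Nlrp1b overlapped those of no other listed gene. Nlrp1a, with means of 0.831 CPM (WT) and 0.860 CPM (Pparg-/-epi), differed by 0.07 in log2 units (adjusted p = 0.942). The neighboring pseudogene Nlrp1c-ps fell by 1.12 (adjusted p = 0.00715), from 14.2 to 6.56 CPM, with no overlap between the groups. The other 6 listed genes within 200 kb of Nlrp1b, among them Nup88, Dhx33 and Mis12, were not called, and their log2 fold changes lay between -0.13 and 0.42. Of the 3 Nlrp1 copies in the table, Nlrp1b and Nlrp1c-ps fell and Nlrp1a, the least abundant, did not pass.

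Nod1 and Nod2 encode the peptidoglycan sensors, NOD1 for fragments with diaminopimelic acid and NOD2 for muramyl dipeptide. Nod1 lies on the minus strand of chromosome 6 (54923942 to 54972612) and Nod2 on the plus strand of chromosome 8 (88647347 to 88688474). Nod2 had 6.86, 12.0 and 15.9 CPM in WT mice against 23.8, 29.8 and 55.9 CPM in Pparg-/-epi mice. Pparg-/-epi replicate 12, a male, was well above the others of its group, and the groups did not overlap. Nod2 rose 2.79-fold, a log2 difference of 1.48 (95% interval 0.96 to 2.00, adjusted p = 0.00177). When Pparg-/-epi replicate 12 was left out the estimate was 1.27 and the call held.

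Nod1 had 70.7, 100.5 and 107.8 CPM in WT mice against 62.5, 80.7 and 102.8 CPM in Pparg-/-epi mice, with overlapping groups. The estimate was -0.27 in log2 units (95% interval -0.55 to 0.01, adjusted p = 0.184). WT replicate 2 held the lowest WT value, and when that library was left out the estimate became -0.36 with an adjusted p of 0.0371, still short of the size needed for a call. The estimates for the 2 peptidoglycan sensors had opposite signs, and that of Nod2 alone passed the test.

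Nlrx1 and Nlrp10 encode NLR proteins that are known mainly as modulators, NLRX1 at mitochondria and NLRP10 as a member without leucine-rich repeats. Both genes are on a minus strand, Nlrx1 on chromosome 9 (44252713 to 44268599) and Nlrp10 on chromosome 7 (108921853 to 108930158). Nlrx1 lay between 14.4 and 22.3 CPM in WT and between 16.9 and 22.1 CPM in Pparg-/-epi mice. Its estimate was 0.15 in log2 units (95% interval -0.12 to 0.43, adjusted p = 0.472). Nlrp10, which is abundant in differentiated epidermis, lay between 209.5 and 307.4 CPM in WT and between 177.5 and 277.5 CPM in Pparg-/-epi mice. Its estimate was -0.15 in log2 units (95% interval -0.42 to 0.13, adjusted p = 0.490). Both intervals end short of a log2 fold change of 0.6 in either direction. Of the 75-base stretches of Nlrx1, 9.57% were shared with transcripts of other genes, so its value is less certain than that of Nlrp10, which shared none.

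Pycard, which encodes ASC, the adaptor used by AIM2, NLRP3 and other sensors, was the most abundant gene of the set per length of transcript (chromosome 7, 127991373 to 127993867, minus strand). It lay between 101.6 and 206 CPM in WT and between 109.1 and 193.1 CPM in Pparg-/-epi mice. The estimate was -0.07 in log2 units (95% interval -0.47 to 0.33, adjusted p = 0.839), and it turned positive in some of the fits, up to 0.08. Of its 75-base stretches, 10.9% were shared with another annotated gene, Gm45205.

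Casp1 and Casp4 encode caspase-1 and caspase-11 and lie beside each other on the plus strand of chromosome 9 (5298517 to 5307281 and 5308849 to 5336791), with 1567 bases between the end of Casp1 and the start of Casp4. Casp1 had 19.4, 37.4 and 43.3 CPM in WT mice against 61.0, 75.1 and 100.4 CPM in Pparg-/-epi mice. Casp4 had 12.6, 23.2 and 24.9 CPM in WT mice against 37.5, 44.7 and 53.6 CPM in Pparg-/-epi mice. WT replicate 1 had the lowest value of both genes and Pparg-/-epi replicate 10 the highest, and neither gene overlapped between the groups. Casp1 rose by 1.10 (95% interval 0.72 to 1.49, adjusted p = 0.00175) and Casp4 by 1.12 (95% interval 0.77 to 1.48, adjusted p = 9.75e-04) on the log2 scale, 2.15-fold and 2.18-fold. Without WT replicate 1 the log2 fold changes were 0.96 and 1.00.

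Casp12, the third gene of this cluster, encodes a caspase described as a brake on inflammatory signaling. Its log2 fold change of 1.13 was close to those of its neighbors, but its values overlapped (1.39 to 11.3 CPM in WT, 6.74 to 19.0 CPM in Pparg-/-epi mice) and it did not pass (adjusted p = 0.116). The transcripts of Casp1 and of Casp4 shared no 75-base stretch with another gene, and their exons overlapped no other listed gene.

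**Figure D2:**
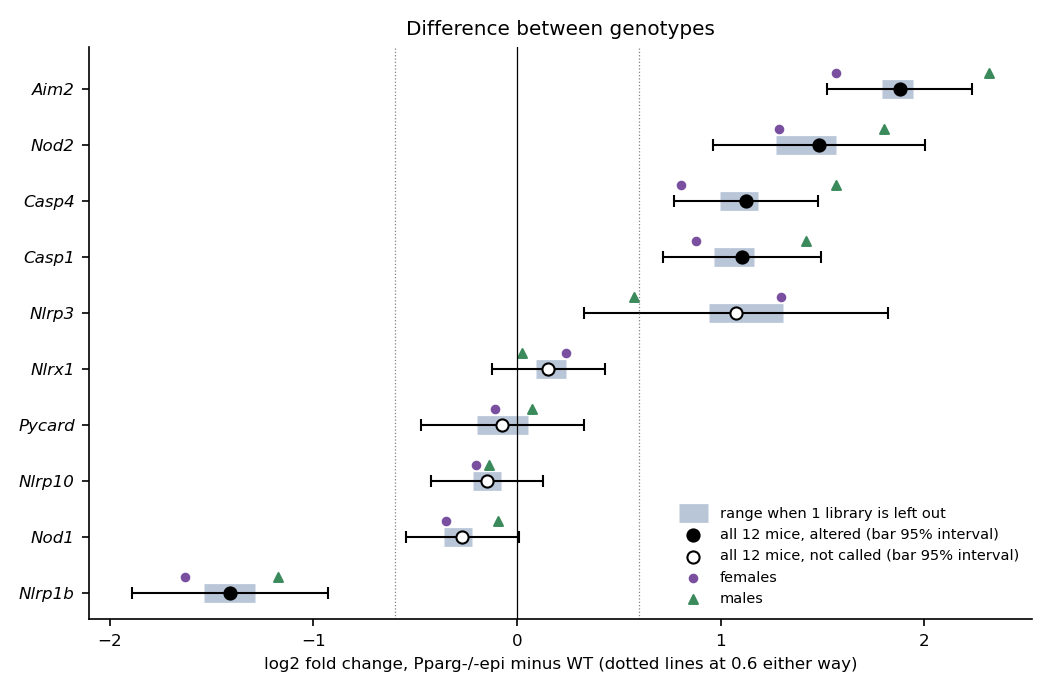
Horizontal axis: log2 fold change, Pparg-/-epi minus WT. Large points with bars are the estimates from all 12 mice with their 95% intervals (filled where altered), shaded bands the range when 1 library is left out, and small symbols the estimates in females and in males. Aim2 lies highest at 1.88, Nlrp1b lies lowest at -1.41, and the bands of these and of Nod2, Casp1 and Casp4 stay beyond the dotted lines at 0.6.

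The likeness of Casp1 and Casp4 was also seen from library to library. For each altered gene, the whole table was ordered by the root-mean-square difference between log2 CPM profiles over the 12 libraries, after each gene was centered on its own mean. These distances are a description, since all points share the same libraries and the genotype difference is part of every profile. Of 14532 other genes, Casp4 was the nearest to Casp1 and Casp1 the nearest to Casp4, at a distance of 0.15. The next nearest to Casp1 were Ankrd37 (0.27) and Cxcr6 (0.30), and to Casp4 Adgrg5 (0.23) and Skint1 (0.26). The nearest to Aim2 were Bcl2a1d (0.28), Adgrg5 (0.28) and Gm1943 (0.31), and Casp4, Nod2 and Casp1 followed at ranks 36, 43 and 61. The nearest to Nod2 were Itga2b (0.25), Krt7 (0.29) and Dio2 (0.29), with Aim2 at rank 98. The nearest to Nlrp1b were 4930550C14Rik (0.23), Vipr1 (0.24) and Hs3st3b1 (0.25), all of them lower in Pparg-/-epi mice, and the closest of the other 9 genes was Nod1 at rank 2058.

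Levels can be compared between genes only per length, as log2 RPKM (CPM divided by the kilobases of exon). In WT mice the order of mean levels was Pycard (6.04), Nlrp10 (5.78), Casp1 (4.53), Nod1 (4.45), Casp4 (3.82), Nlrx1 (2.11), Nlrp1b (1.90), Aim2 (1.80), Nod2 (1.33) and Nlrp3 (-2.45). The WT order fell into 4 tiers whose ranges did not overlap with the next: Pycard and Nlrp10 at the top, then Casp1, Nod1 and Casp4, then Nlrx1, Nlrp1b, Aim2 and Nod2, and Nlrp3 at the bottom. Within a tier, neighboring genes overlapped, and Casp1 stood above Nod1 in 4 of 6 WT mice and Nlrx1 above Nlrp1b in 3 of 6. In Pparg-/-epi mice the order was Pycard (5.98), Casp1 (5.66), Nlrp10 (5.63), Casp4 (4.96), Nod1 (4.18), Aim2 (3.67), Nod2 (2.80), Nlrx1 (2.27), Nlrp1b (0.55) and Nlrp3 (-1.53). There Casp1 and Nlrp10 were in either order equally often, 3 of 6 mice each, Casp4 stood above Nod1 in 6 of 6, and Nod2 above Nlrx1 in 6 of 6 although their ranges overlapped. Nlrp1b, which stood above Aim2 and Nod2 in the WT order, stood below both in Pparg-/-epi mice, at a place of its own with no overlap with Nlrx1 above or Nlrp3 below.

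**Figure D3:**
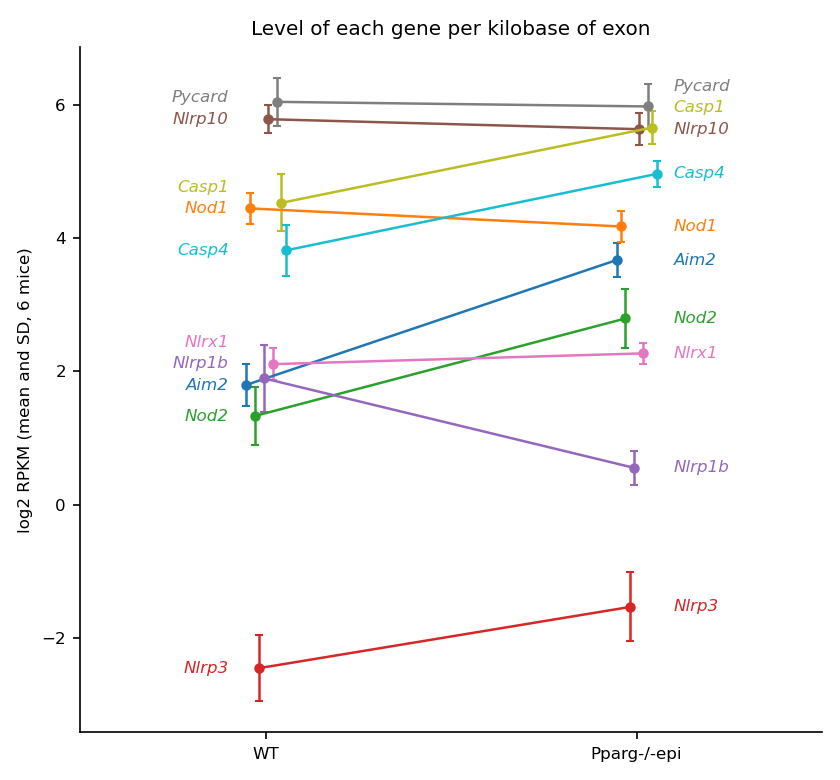
Vertical axis: log2 RPKM, mean with SD of 6 mice, for WT (left) and Pparg-/-epi mice (right), with a line for each gene. Pycard and Nlrp10 stay near 6, the lines of Casp1, Casp4, Aim2 and Nod2 climb, that of Nlrp1b descends from 1.90 to 0.55, and Nlrp3 stays lowest.

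Comparing a pair of genes inside the same library takes out any difference in scaling between libraries. The pairs were chosen after the levels were seen, so they are described without a test. Aim2 and Nlrp1b, the DNA sensor and the sensor of its own degradation, were close to each other in WT mice, where Aim2 minus Nlrp1b was -0.10 ± 0.39 (SD, n = 6) in log2 RPKM, with a range from -0.55 to 0.39. In Pparg-/-epi mice the difference was 3.12 ± 0.26 (SD, n = 6), from 2.84 to 3.40, so Aim2 exceeded Nlrp1b 8.68-fold in place of 0.932-fold. Aim2 had the largest rise of the set and Nlrp1b the only fall, so this shift restates those changes and adds no separate result. Nod2 stood below Nod1 in every mouse, by 8.66-fold in WT and 2.60-fold in Pparg-/-epi mice, with no overlap in the difference. Casp1 stood below Pycard, by 2.86-fold in WT and 1.25-fold in Pparg-/-epi mice, again with no overlap. Casp4 minus Casp1 was -0.71 ± 0.17 in WT and -0.70 ± 0.16 in Pparg-/-epi mice (SD, n = 6), and the groups overlapped.

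**Figure D4:**
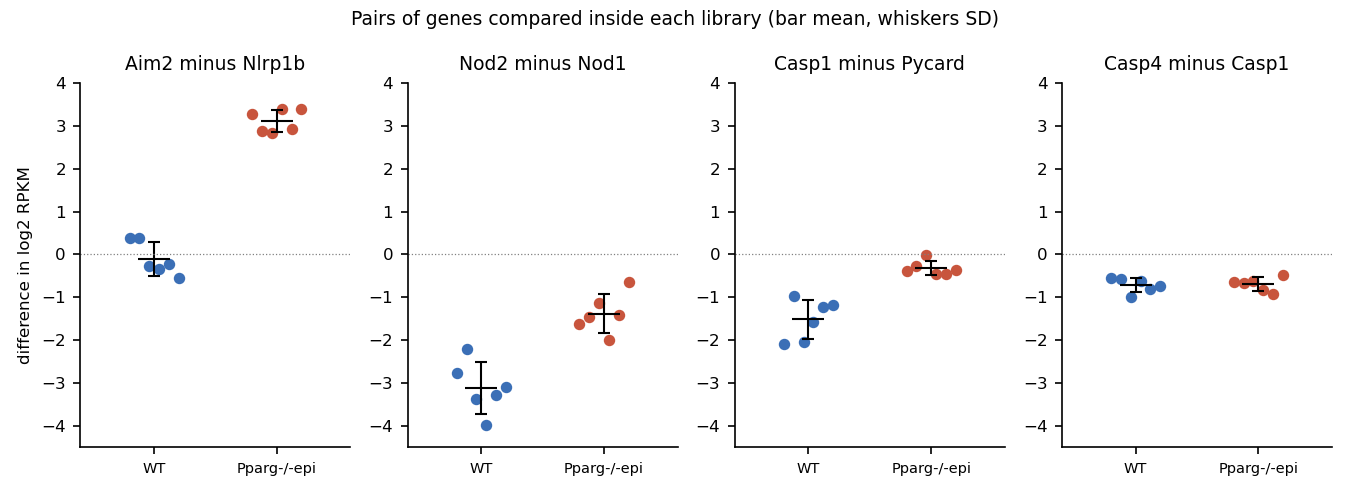
Each panel plots, for every mouse, the level of 1 gene minus that of another in log2 RPKM, with the mean and SD of 6 mice per genotype. Aim2 minus Nlrp1b moves from near 0 to about 3.12, Nod2 minus Nod1 and Casp1 minus Pycard move upward without overlap, and Casp4 minus Casp1 stays near -0.70 in both genotypes.

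The direction of each altered gene was the same in females and in males, taken from a fit with genotype, sex and their interaction. The log2 fold changes in females and males were 1.57 and 2.32 for Aim2, 1.29 and 1.80 for Nod2, 0.88 and 1.42 for Casp1, 0.81 and 1.56 for Casp4, and -1.63 and -1.17 for Nlrp1b. The 4 genes that rose had the larger estimate in males, where only 2 Pparg-/-epi mice stood against 3 WT mice. Pparg-/-epi replicates 7, 8 and 9, all female, also had a lower first number in the mouse name than every other mouse. Sex and that number were therefore partly entangled in this group, and their parts were not tested. The interaction itself passed for none of the 10 genes (smallest adjusted p = 0.895), and for 0 of 14533 genes with the quasi-likelihood test, 741 of which had an unadjusted p under 0.05. The likelihood ratio test called 4 of the 14533 and none of the 10. The estimates for Aim2 differed by 0.75 (unadjusted p = 0.0175) and those for Casp4 by 0.76 (unadjusted p = 0.0173) and did not survive adjustment, so a difference between the sexes was not shown. In the females alone, where 4.48% of all genes were altered, Aim2, Casp1, Casp4 and Nlrp1b kept their calls and Nod2 had an adjusted p of 0.0524 at a log2 fold change of 1.28. In males within the interaction fit Nlrp1b had an adjusted p of 0.105.

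Around the 10 genes, 7 lists of pathway genes were examined. With all 12 libraries 6 of their 98 listed genes were called, or 6.12%, beside the 10.3% of all genes. Of other NLR genes, 9 of 23 were in the table, Nlrp1c-ps fell and the other 8 did not pass (median log2 fold change -0.02). Of the AIM2-like and other nucleic acid sensor genes, 17 were listed, with a median of 0.52. The quasi-likelihood test called 0 of them (6 with an unadjusted p under 0.05) and the likelihood ratio test 1. Of the NOD1 and NOD2 signaling genes, 22 were listed and Slc46a2, a transporter of peptidoglycan fragments, rose by 1.00 (adjusted p = 0.0434). Its call held in 1 of the 12 fits that left out 1 library. The kinase gene Ripk2 stood at 0.28 (adjusted p = 0.0433), short of the size needed. Of the 19 genes that activate or license inflammasomes, 0 were called (6 with an unadjusted p under 0.05, and 2 called by the likelihood ratio test), with a median of 0.20. Of the restraining genes, 13 of 16 were listed and Serpinb1a, an inhibitor of neutrophil proteases that also limits inflammatory caspases, rose by 1.23 (adjusted p = 0.00651).

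Of the effectors and substrates of the caspases 8 were listed, of which 1 rose, 1 fell and 6 did not pass. Il18, the cytokine precursor that caspase-1 matures, rose by 1.01 (adjusted p = 0.00563), from 104.6 to 210.1 CPM on average with no overlap. Il33, an alarmin that does not need caspase-1 to become active, fell (log2 difference -0.86, adjusted p = 0.0331) with overlapping groups, a call that held in 4 of those 12 fits. Gsdmd, the pore-forming target of both caspases, was estimated at 0.34 ± 0.27 (log2 difference ± standard error, adjusted p = 0.447) and Il1b at 1.55 (adjusted p = 0.0622). The likelihood ratio test called Il1b, with an adjusted p of 0.0271, and so 3 of the 8. Of the 10 other caspase genes, Casp14, the caspase of cornification, rose by 1.81 (adjusted p = 5.01e-04) and the other 9 were not called. Casp8 reached 0.38 in log2 units (adjusted p = 0.0164), short of the size needed.

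Leaving out WT replicate 2 changed the counts of 4 of these 7 lists and not that of the 10 genes. Without that library 2249 of 14533 genes were altered in place of 1493. The 10 genes kept the same 5 calls, with log2 fold changes of 1.93 for Aim2, 1.56 for Nod2, 1.09 for Casp1, 1.14 for Casp4 and -1.47 for Nlrp1b. The nucleic acid sensors went from 0 to 7 calls, all higher, among them Mnda (log2 fold change 1.49), Ifi204 (1.30) and Zbp1 (1.61). The activating and licensing genes went from 0 to 6 calls, all higher: Gbp2, Gbp3, Gbp5, Gm12250, Irf1 and Irf8. The restraining genes went from 1 to 4 calls, with Casp12 at 1.57 (adjusted p = 0.0146), Trim30a and Il18bp added. The effectors and substrates went from 2 to 3 calls, with Il1b added at a log2 fold change of 2.36 (adjusted p = 6.92e-04). These genes were named after their values were seen. Some of these calls also appeared with WT replicate 2 kept: the likelihood ratio test over all 12 libraries called Mnda, Gbp2, Irf1 and Il1b, and the quasi-likelihood test without Pparg-/-epi replicate 12 called Gbp2 and Irf1. Aim2, Nod2, Nlrp1b, Casp1 and Casp4 were called in all of these fits.

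**Figure D5:**
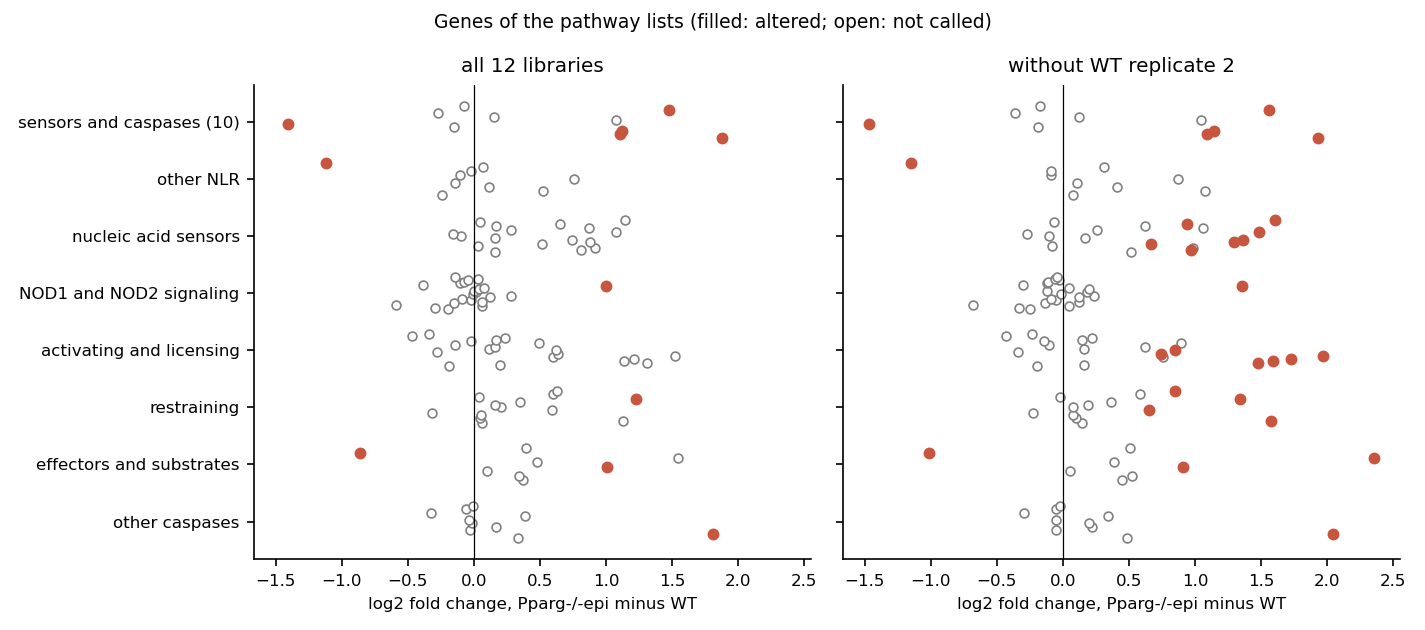
Horizontal axis: log2 fold change, Pparg-/-epi minus WT, with all 12 libraries (left) and without WT replicate 2 (right). Each point is 1 gene of the list named at the side, filled where altered. The top row, the 10 sensors and caspases, keeps 5 filled points in both panels, while the nucleic acid sensors go from 0 to 7 and the activating and licensing genes from 0 to 6.

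Markers of other cell types moved with genotype or with single mice. The 7 mast cell markers all rose, and their summed level was 20.5 to 97.4 CPM in WT mice (at most 78.6 CPM without WT replicate 2) against 138.5 to 250.6 CPM in Pparg-/-epi mice, with Cpa3 at 4.72 to 29.3 against 38.4 to 82.2 CPM and Cma1 at 3.02 to 12.9 against 16.0 to 36.4 CPM. Of the neutrophil markers, 2 of 8 were listed, and their sum was 0.944 to 4.92 CPM in WT mice against 9.71 to 17.0 CPM in Pparg-/-epi mice. Cxcr2 rose, from 0 to 2.88 CPM in WT to 7.57 to 13.9 CPM in Pparg-/-epi mice, and Csf3r did not pass with all 12 libraries but did without WT replicate 2. None of the 11 macrophage and monocyte markers passed (1 of them, Ly6c2, was at 0 in some libraries), and their sum was 95.2 to 833 CPM in WT, the highest in WT replicate 2, and 261.7 to 481.4 CPM in Pparg-/-epi mice. Without WT replicate 2 the WT sums were 95.2 to 417.3 CPM, still overlapping, and C1qa and C1qb were called higher. The first genes of that list, Adgre1 and Csf1r, had log2 fold changes of -0.23 and -0.20 over all 12 libraries. The median of the 11 was 0.34, with a range from -0.95 to 0.94. None of the 4 general leukocyte markers passed, with or without WT replicate 2. Their summed level was 108.5 to 274.5 CPM in WT mice (108.5 to 164.6 CPM without that library) against 155 to 192 CPM in Pparg-/-epi mice. Over all 12 libraries Ptprc had the lowest log2 fold change of the 4, at -0.03, and Coro1a was at 0.18. The median of the 4 was 0.12 and the highest 0.25.

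Langerhans cell markers summed to 1378 to 3314 CPM in WT mice against 1703 to 2026 CPM in Pparg-/-epi mice, with 1 of 7 called. The highest sum was again that of WT replicate 2, and without it WT mice reached 1989 CPM and 2 of 7 were called. Cd207 was at 26.3 to 61.6 CPM in WT mice against 33.9 to 63.1 CPM in Pparg-/-epi mice. T cell markers summed to 157 to 264 CPM in WT mice against 199 to 259 CPM in Pparg-/-epi mice, with Cd5 higher and Cd3e lower among 8 (Cd247 also lower without WT replicate 2). Keratinocyte markers, led by Krt5 (log2 fold change 0.14) and Krt14 (0.98, called higher), were the most abundant and matched the labelled tissue, at 20163 CPM in WT replicate 2 and 31355 to 52516 CPM elsewhere. With all 12 libraries 1 of these 7 markers was called. Without WT replicate 2, Krt14 and Krt1 were called higher and Dsg1a lower. Sebocyte markers summed to 12.4 to 713.5 CPM in WT (12.4 to 349.7 CPM without WT replicate 2, the highest) and 3.91 to 16.8 CPM in Pparg-/-epi mice, and 3 of the 5 listed fell, among them Far2 and Scd3, which also fell without WT replicate 2. Of the 6 endothelial markers 1 was called (3 without WT replicate 2), with log2 fold changes from 1.02 to 1.79 (median 1.22). Their sum was 7.99 to 132.9 CPM in WT and 33.4 to 209.6 CPM in Pparg-/-epi mice. None of 6 fibroblast, 4 melanocyte, 4 adipocyte and 4 skeletal muscle markers passed, though their levels were not flat. Median log2 fold changes were -0.05, 1.55, -0.66 and -3.84 in that order. Muscle markers summed to 7663 CPM in WT replicate 5, against a WT median of 30.2 and a Pparg-/-epi median of 21.7 CPM. The part of any of these cell types, keratinocytes included, in the changes of Aim2, Nod2, Casp1, Casp4 and Nlrp1b was not tested.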

How the data were processed

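The authors scraped dorsal skin of 12 mice, aligned the mRNA reads to the mm10 genome with STAR 2.5.2b, kept uniquely mapped reads of good quality, and counted them per gene with featureCounts (Subread 1.5.1). The deposited values are these raw counts, without normalization, for 14533 genes, each above 0.5 CPM in at least 6 mice (2800 blank rows were dropped). Libraries were matched to mice by mouse name, and those of Pparg-/-epi replicates 11 and 12 through the run sheet of the study's supplement. Ages are those of the sample labels, from which that run sheet differs by several weeks for WT replicate 2 and Pparg-/-epi replicate 10, and the study's methods give a younger range, so the fit with age rests on uncertain values.

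Counts were scaled with TMM and compared between genotypes, with no other term, by the quasi-likelihood test of edgeR 4.0.16 under R 4.3.3. Intervals are 95%. CPM and log2 RPKM (prior count of 2) use the TMM-scaled totals and the deposited exon lengths. Alternatives were the likelihood ratio test, DESeq2 1.42.0, other scaling, at least 10 counts in every library, terms for sex, RIN, age and mouse name number, females alone, and each library left out. Contrasts within each sex were added after the data were seen. The procedure was tested on simulated data. Genes named were the 10 genes of the set, Pparg, called genes of each pathway list (at most 3 in each direction), the 3 nearest profiles of each altered gene, and the first 2 genes of marker lists. Genes outside this rule were chosen after their values were seen. The members and lists were chosen with earlier results of these data known. Plots were made in Python 3.11.15 (matplotlib 3.10.9).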

Additional observations from a re-analysis of the deposited data

Results flagged for a closer look

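In 2 of 20 sets of 6 values (10 genes in each genotype, on the log2 CPM scale) 1 mouse lay far from the rest of its group by Dixon's criterion, which chance alone meets in about 1 of 20 sets. Nod1 in WT replicate 2 was at 6.15 (70.7 CPM), below the next WT mouse at 6.57, a gap of 0.702 of the whole range of the group. Casp1 in WT replicate 1 was at 4.29 (19.4 CPM), below the next WT mouse at 5.15, a gap of 0.747 of the range. WT replicate 1 was also the lowest WT mouse for Casp4, at 12.6 CPM. Leaving out WT replicate 2 moved the Nod1 estimate from -0.27 to -0.36 on the log2 scale, and leaving out WT replicate 1 moved that of Casp1 from 1.10 to 0.96, still called.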

How the results depend on the processing

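The number of the 10 genes called higher was 4 in all 12 fits that left out 1 library except 5 in those without WT replicate 3 and without Pparg-/-epi replicate 12, where Nlrp3 was added, and 3 to 5 over the other 10 alternatives. The number called lower was 1 throughout. No alternative reversed a call. Without the replicates in turn, the number of called genes was 0 to 7 for the nucleic acid sensors, 0 to 1 for NOD1 and NOD2 signaling, 0 to 6 for the activating and licensing genes (2 without Pparg-/-epi replicate 12), 1 to 4 for the restraining genes and 1 to 3 for the effectors and substrates. The likelihood ratio test called 1 nucleic acid sensor, 2 activating and licensing genes and 3 effectors and substrates, and total counts without TMM left 0 calls in NOD1 and NOD2 signaling. The cause of these changes was not tested. Slc46a2 kept its call only without WT replicate 2 (adjusted p between 8.21e-04 and 0.104 over the 12 fits). Il33 lost its call without WT replicates 1, 4 and 6 and without Pparg-/-epi replicates 8 to 12 (log2 fold change from -1.01 to -0.64, adjusted p between 0.00437 and 0.0721). Nlrp3 had too few counts for the filter of 10 counts in every library. No paired analysis was possible because the groups share no replicate number and a single first number of the mouse name, borne by 1 mouse of each. The unpaired fit with mice split by that number into 2 sets, low and high, left 4 of the 10 genes higher and 1 lower. Pparg-/-epi replicates 7, 8 and 9 had lower numbers than any WT mouse. For them that fit cannot separate genotype from the number. Depth limits Nlrp3 most, since 3 counts correspond to 0.159 to 0.296 CPM on library totals without TMM scaling.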
